A study of Mus musculus with 6 samples.

Results

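The genes described here encode ephrins, semaphorins, Slits and netrins, together with their receptors, the Eph kinases, plexins, neuropilins, Robos and Unc5 proteins. They were taken by symbol: every gene of the array platform whose symbol begins with the stem of one of these families and that has a probe set assigned to a single symbol, with the probe set of the highest mean over the 6 arrays kept. This gave 69 of the 19856 genes tested, from 74 probe sets. The letters also matched Unc50, a membrane protein of the Golgi and nuclear envelope, and Unc5cl, a death domain protein that resembles Unc5 receptors, so 67 of the 69 belong to the guidance families. Their values in a tetraploid line of mouse embryonic fibroblasts, labelled 174 and described as having abnormal DNA content, were set against those of a diploid line, labelled FW and described as the normal control. The series title calls the tetraploid cells transformed. Both lines were grown in serum to near confluence, no drug or other agent is named, and each line was hybridised to 3 whole-transcript arrays. With only 1 line for each ploidy, effects of the line, its ploidy and its transformation cannot be told apart. Nothing in the labels says that the 3 samples per line came from separate cultures. P-values therefore measure only the spread between these samples, which may be technical.

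Guidance molecules were first known from growing axons, which they attract or repel, and they act in the same way on migrating cells, including fibroblasts and endothelium. Eph receptors are tyrosine kinases that meet ephrins on the surface of neighbouring cells; EphA receptors bind mainly the lipid-anchored ephrin-A proteins and EphB receptors the transmembrane ephrin-B proteins. Semaphorins signal through plexins, the secreted class 3 mostly with neuropilin as the binding partner, Slits bind Robo receptors, and netrins bind DCC and Unc5 receptors. Most of these receptors end on the actin skeleton, so that contact makes a cell edge fold back or advance.

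All values are log2 values as deposited, 1 per gene and array. Differences are tetraploid minus diploid, and a gene is said to have risen or fallen in the tetraploid line when limma gave an adjusted p below 0.05 over all 19856 genes. Background is the 95th percentile of 1027 olfactory receptor genes on the same array, which lay between 7.01 and 7.41. Where all 3 arrays of a line lay at or below it, a fold is a lower bound, taken with the values of that line raised to the background. In bulk RNA, fewer cells with a transcript and less transcript per cell cannot be told apart.

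The samples carried the fibroblast markers fixed for this tissue: all 10, among them Col1a1, Pdgfra and Vim, were above background on all 6 arrays. Of these 10, 2, Col1a1 and Fn1, fell, while 6 had an unadjusted p below 0.05, 5 of them lower and 1 higher in the tetraploid line. The calls of Col1a1 and Fn1 each held in 1 of the 6 fits that left out 1 array, where the limma adjusted p reached 0.138 and 0.152. Both ended with the replicate block (0.0869 and 0.0954). Of 7 measured neural and glial markers 5 were above background on all 6 arrays, 0 passed the limma test at an adjusted p below 0.05, and 1 had an unadjusted p below 0.05. Of 8 endothelial markers 3 fell (Kdr, Emcn and Erg), and 5 were above background on no array, namely Pecam1, Cdh5, Tek, Tie1 and Erg itself. Only Cldn5 was above background on all 6 arrays, and its difference was 0.45 (adjusted p = 0.179). Of 8 macrophage and leukocyte markers 1, Lyz2, fell, and 5 had an unadjusted p below 0.05, all lower in the tetraploid line. Of these 5, Ptprc, Adgre1 and Itgam were above background on no array, as was Tyrobp, with a difference of -0.11. Csf1r lay the other way, with a difference of 0.18 (adjusted p = 0.905). The mean of that list read 4.16, 4.36 and 4.20 for tetraploid arrays 1 to 3, against 5.05, 6.41 and 7.28 for diploid arrays 1 to 3, so the diploid arrays differed among themselves. Of 7 epithelial markers 1, Krt18, fell. With values raised to background the calls of Emcn (adjusted p = 0.337), Erg (0.464), Lyz2 (0.0762) and Krt18 (0.464) ended, and that of Kdr did not (0.0250).

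Of the 69 genes, 16 passed the test, or 23.2%, where the share over all genes tested was 14.0%. Among them 11 fell (15.9%, against 7.80% of all genes) and 5 rose (7.25%, against 6.15%). The EphA receptor genes Epha3, Epha4 and Epha7, the class 3 semaphorin genes Sema3d and Sema3e, the plexin genes Plxna4 and Plxnc1, and Slit2, Unc5b, Ntn4 and Sema5b fell. The ephrin genes Efna1 and Efna4, the netrin gene Ntn1, Plxna3 and Sema6c rose. An unadjusted p below 0.05 was found for 28 of the 69 (40.6%, against 29.5% of all genes). The lines did not overlap, 3 arrays against 3, in 31 members (44.9%, against 37.3%), 23 of them lower (33.3%, against 18.2%) and 8 higher (11.6%, against 19.1%) in the tetraploid line. The median difference over the 69 was -0.19, where that over all genes was 0.07. In 8 genes the 3 diploid arrays lay above background and the tetraploid arrays did not (11.6% of the members and 2.11% of all genes), namely Epha1, Epha3, Epha4, Epha7, Ntn4, Plxna4, Sema3e and Sema6a. The opposite pattern was found in 1 member, Efna1 (1.45%, against 0.962% of all genes). Of the 69, 30 were above background on all 6 arrays, 26 on some and 13 on none, and of the 13, Sema3d and Sema6c passed the test. Over all 19856 genes these numbers were 8627, 4221 and 7008, so the shares above compare genes of unlike level. Leaving out 1 array moved the counts of calls. Without any 1 diploid array 5 or 6 members fell and 1 rose, where calls over all genes dropped to between 837 and 1259. Without tetraploid array 1 or tetraploid array 2, 3 members rose.

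**Figure D1:**
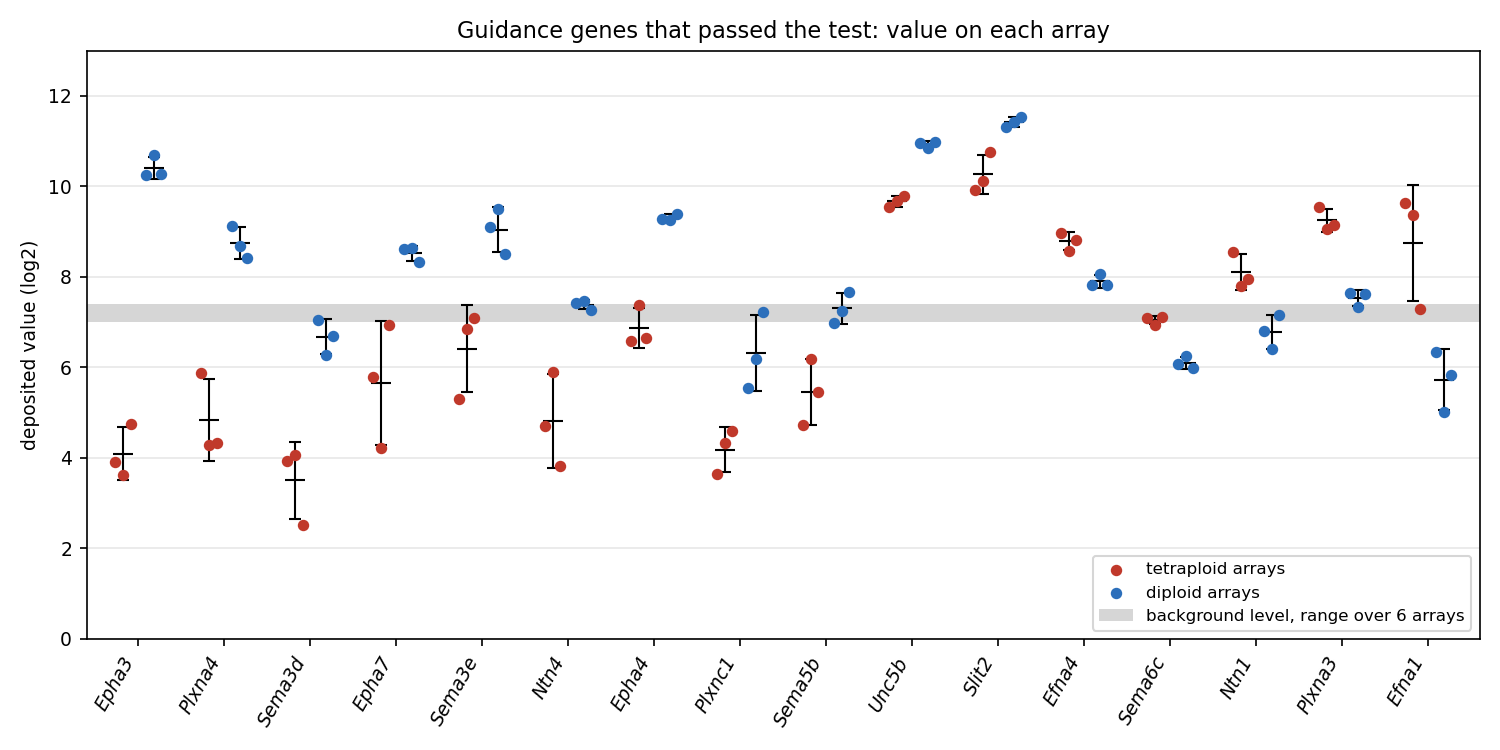
Deposited log2 value (vertical axis) on each of 3 tetraploid (red) and 3 diploid (blue) arrays for the 16 guidance genes that passed the limma test, ordered by difference; black bars are means and SDs and the grey band spans the background levels of the 6 arrays (7.01 to 7.41). The tetraploid values of Epha3 lie between 3.63 and 4.74, far below the band, and its diploid values above 10.

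Among the Eph receptors the falls were in the EphA family. Of its 9 measured genes 3 fell (33.3%, against 7.80% of all genes) and 0 rose (against 6.15%), and the family median was -0.91. The families described here are small, so a count of 0 calls does not set a family apart from the others. Epha3, a receptor that binds ephrin-A5 tightly and is known from embryonic mesenchyme, stood at 3.90, 3.63 and 4.74 for tetraploid arrays 1 to 3, against 10.25, 10.70 and 10.27 for diploid arrays 1 to 3 (arrays are given in this order throughout). All diploid values were thus well above background and all tetraploid values well below it. The difference was -6.32 ± 0.33 (SE, n = 3 arrays per line; limma adjusted p = 2.72e-04), or at least 8.68-fold lower. Epha4, a receptor that binds ephrins of both classes, stood at 6.57, 7.39 and 6.65 against 9.28, 9.26 and 9.39, a difference of -2.44 ± 0.26 (adjusted p = 0.00325; at least 4.06-fold lower). Its diploid values had an SD of 0.07, and the tetraploid arrays did not pass background. Epha7 stood at 5.79, 4.22 and 6.94 against 8.61, 8.63 and 8.32, a difference of -2.87 ± 0.63 (adjusted p = 0.0281; at least 2.35-fold lower). The tetraploid arrays were spread over this gene more than the diploid ones, with an SD of 1.37 against 0.17. Epha3 and Epha4 were called without any 1 array. The call of Epha7 ended without tetraploid array 1 (adjusted p = 0.0661) and without diploid array 1, 2 or 3 (0.0854, 0.0915 and 0.0772).

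The promoters of these 3 receptor genes are shown because the genes fell together, and that of Plxna3 because it is the plexin gene that rose. Each is the 250 bases before the first listed start site in RefSeq on GRCm38.p6, read 5′ to 3′ on the gene's strand. They lie at chr16:63864176-63864425 (minus strand), chr1:77515089-77515338 (minus strand), chr4:28812881-28813130 (plus strand) and chrX:74328816-74329065 (plus strand). Capitals mark matches, on either strand, to the TATA box (TATAAA), the CCAAT box, the GC box of Sp factors (GGGCGG), the E-box (CACGTG) and the core bound by TEAD factors (GGAATG), which do not overlap in these windows.
Epha3: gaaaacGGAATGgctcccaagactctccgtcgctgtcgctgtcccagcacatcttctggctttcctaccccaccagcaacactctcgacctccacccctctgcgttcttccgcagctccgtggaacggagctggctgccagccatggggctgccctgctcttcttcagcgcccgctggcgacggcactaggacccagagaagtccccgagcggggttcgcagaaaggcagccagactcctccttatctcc
Epha4: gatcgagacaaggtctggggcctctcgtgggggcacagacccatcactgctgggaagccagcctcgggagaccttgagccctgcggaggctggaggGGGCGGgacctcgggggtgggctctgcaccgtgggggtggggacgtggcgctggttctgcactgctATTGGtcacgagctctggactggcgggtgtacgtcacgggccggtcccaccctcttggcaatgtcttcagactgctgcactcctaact
Epha7: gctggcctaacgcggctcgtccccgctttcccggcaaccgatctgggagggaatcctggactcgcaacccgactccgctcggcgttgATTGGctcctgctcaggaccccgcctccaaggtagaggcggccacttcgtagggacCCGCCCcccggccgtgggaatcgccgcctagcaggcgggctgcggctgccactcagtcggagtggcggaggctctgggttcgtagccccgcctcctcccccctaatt
Plxna3: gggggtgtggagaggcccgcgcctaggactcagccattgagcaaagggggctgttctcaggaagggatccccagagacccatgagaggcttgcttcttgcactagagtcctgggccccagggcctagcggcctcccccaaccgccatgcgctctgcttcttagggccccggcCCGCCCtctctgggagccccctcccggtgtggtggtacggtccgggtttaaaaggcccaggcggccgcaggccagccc
The Epha4 and Epha7 windows each held 1 GC box and 1 CCAAT match, the Plxna3 window 1 GC box, and the Epha3 window 1 TEAD core. None of these 4 windows held a TATA box or an E-box of these letters. Over all 32851 RefSeq windows of this length, 32.7% held a GC box, 33.8% a CCAAT box, 12.6% the TEAD core, 12.4% a TATA box and 6.02% the E-box. These windows came from 27025 genes, which include genes not tested here. RefSeq windows were at hand for 60 of the 69 genes, 76 windows in all, and 72.4% of these held a GC box, 26.3% a CCAAT box, 10.5% the TEAD core, 2.63% a TATA box and 5.26% the E-box. The median window of the guidance genes held 15 CpG dinucleotides and 64.4% G and C, against 6 and 52.4% over all windows. The windows of Epha3, Epha4, Epha7 and Plxna3 held 16, 14, 25 and 12 CpG. All 4 windows thus held more CpG than the median of 6 over all windows, and those of Epha4 and Plxna3 fewer than the guidance median of 15. A match to these letters is a description of the window only.

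The other EphA receptors did not pass the test. Epha2, a receptor of epithelia and many tumour cells, was above background on all 6 arrays, at 8.77, 9.06 and 8.20 against 9.82, 9.34 and 9.61. The groups did not overlap, and the difference was -0.91 ± 0.28 (adjusted p = 0.0761), with a 95% interval from -1.57 to -0.25. Epha1 stood at 7.14, 6.88 and 6.53 against 7.56, 7.33 and 7.94, near background throughout (difference -0.76, adjusted p = 0.0978). Epha10, above background on all arrays through both of its probe sets, had a difference of 0.41 in the probe set used and 0.32 in the other. Epha5, Epha6 and Epha8 were above background on no array.

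Of 4 measured EphB genes 0 passed the test in limma at an adjusted p below 0.05, where 14.0% of all genes did. Among the 4, 1, Ephb6, had an unadjusted p below 0.05. Ephb2 had no entry for this platform and was not analysed. Ephb4, the venous ephrin-B2 receptor, stood at 10.22, 10.32 and 10.53 against 9.99, 10.11 and 10.08. The groups did not overlap, but the difference was only 0.29 ± 0.19 (adjusted p = 0.357; interval -0.15 to 0.74). Ephb6, a receptor without kinase activity, stood at 8.86, 9.23 and 6.56 against 6.13, 5.57 and 6.29. It was above background on tetraploid arrays 1 and 2 alone, and its difference of 2.22 ± 0.68 did not pass (adjusted p = 0.0740) but became 3.05 (adjusted p = 0.00596) without tetraploid array 3. Ephb3 had a difference of 0.03, and Ephb1 one of -1.09 (adjusted p = 0.226) with 1 tetraploid array above background.

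Among their ligands, 2 of 5 ephrin-A genes rose (40%, against 6.15% of all genes) and 0 fell (against 7.80%), with a family median of 0.34. Efna1, an ephrin known to be induced by inflammatory cytokines in endothelium, stood at 9.63, 9.36 and 7.29 against 6.34, 5.02 and 5.84. The diploid arrays were all below background, and tetraploid array 3 was barely above it. The difference was 3.03 ± 0.65 (adjusted p = 0.0274; at least 3.02-fold higher). Efna4 was above background on all arrays, at 8.97, 8.57 and 8.81 against 7.81, 8.07 and 7.83, and was 1.84-fold higher (difference 0.88 ± 0.21, adjusted p = 0.0342). Efna5, a ligand of Epha3 and Epha4, stood at 8.02, 9.78 and 9.25 against 9.22, 9.26 and 9.44. Tetraploid array 1 lay below the diploid arrays and array 2 above them, and the difference was -0.29 (adjusted p = 0.716; interval -1.31 to 0.73). The calls of both rising ephrins rested on every diploid array: without diploid array 1, 2 or 3 the adjusted p was 0.0550, 0.0930 and 0.0795 for Efna1 and 0.123, 0.0940 and 0.111 for Efna4. That of Efna1 also ended without tetraploid array 1 or 2 (0.0696 and 0.0860) and that of Efna4 without tetraploid array 1 or 3 (0.0600 and 0.0690).

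None of the 3 ephrin-B genes passed the limma test at an adjusted p below 0.05, where 14.0% of all genes did. An unadjusted p below 0.05 was found for 0 of the 3, against 29.5% of all genes. Efnb2, the arterial ephrin and ligand of Ephb4, stood at 9.66, 10.53 and 10.98 against 10.45, 10.38 and 10.60. The tetraploid values lay on both sides of the diploid ones (difference -0.09 ± 0.34; interval -0.90 to 0.73). Efnb1 and Efnb3 had differences of -0.19 and 0.54.

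**Figure D2:**
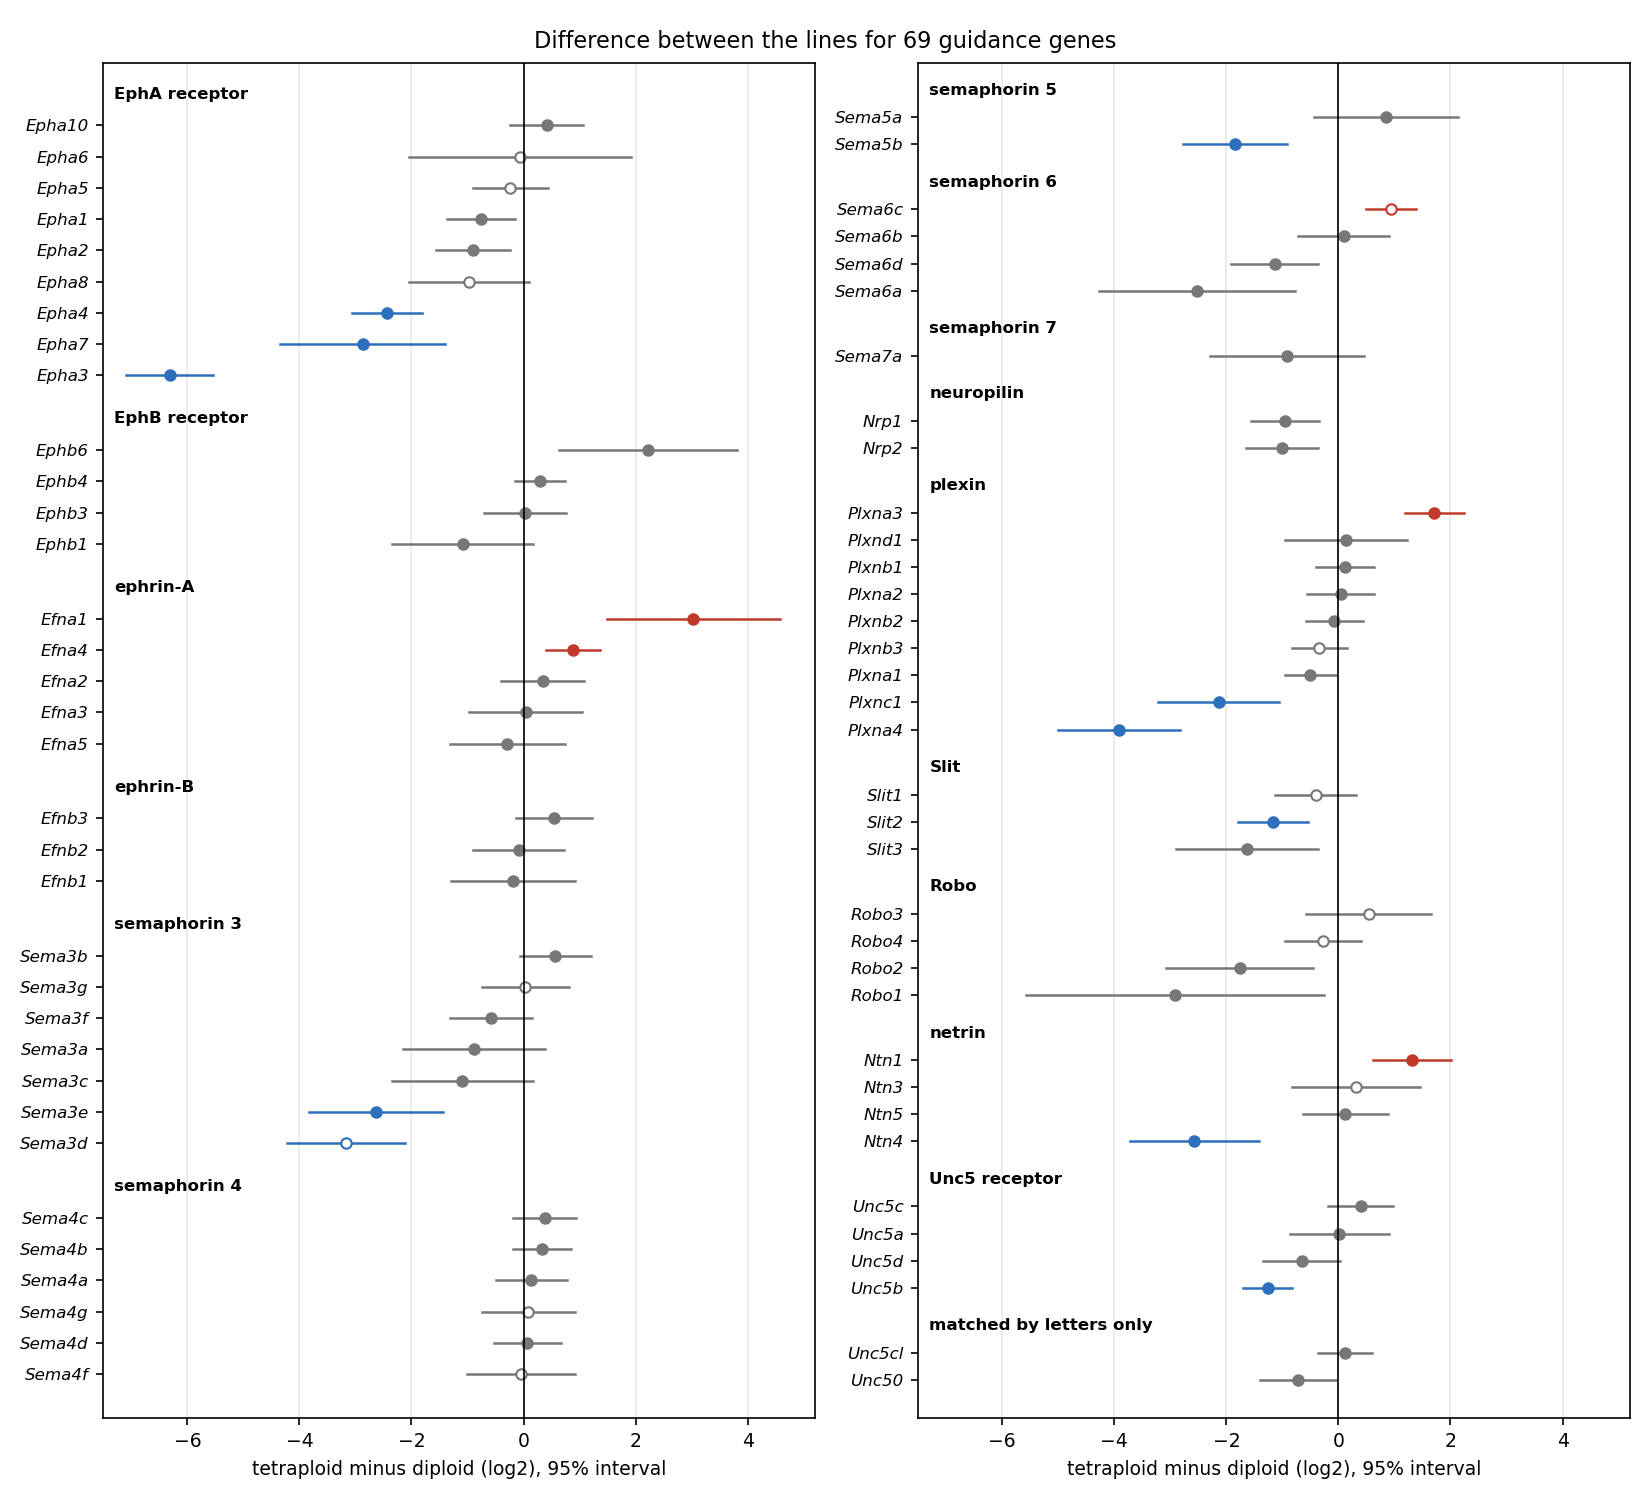
Difference between the lines (tetraploid minus diploid, log2, horizontal axis) with its 95% interval from limma for all 69 genes, by family; blue genes fell, red genes rose, grey genes did not pass the test, and open points were above background on no array. The EphA family extends to -6.32 at Epha3, while the 6 class 4 semaphorins lie between -0.04 and 0.38.

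Of 7 class 3 semaphorin genes, whose products are secreted, 2 fell (28.6%, against 7.80% of all genes) and 0 rose (against 6.15%). The family median was -0.88. Sema3e, which binds plexin-D1 without needing a neuropilin, stood at 5.31, 6.84 and 7.10 against 9.11, 9.50 and 8.51. All diploid values were above background and no tetraploid value was, a difference of -2.63 ± 0.51 (adjusted p = 0.0191; at least 3.37-fold lower). Sema3d, a semaphorin of the developing heart and vessels, stood at 3.94, 4.06 and 2.53 against 7.05, 6.28 and 6.69. The groups were far apart (difference -3.17 ± 0.44, adjusted p = 0.00729), but none of the 6 values was above background, so no fold is given, and raising values to the background ended the call (adjusted p = 0.464). The call of Sema3e ended without diploid array 1 or 2 (0.0645 and 0.0726).

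The other class 3 genes did not pass. Sema3a, the founding repellent of the class, stood at 8.16, 9.65 and 10.30 against 10.63, 9.90 and 10.24. Only tetraploid array 1 was clearly below the diploid arrays (difference -0.88 ± 0.53, adjusted p = 0.328). Sema3c showed the same low array 1, at 7.94 beside 10.11 and 9.32, against 10.38, 9.80 and 10.46 (difference -1.09, adjusted p = 0.226). Sema3f, which binds neuropilin-2, stood at 7.67, 8.61 and 8.70 against 8.95, 8.75 and 9.01, again with array 1 lowest (difference -0.58 ± 0.31, adjusted p = 0.271). Sema3b had a difference of 0.57 (adjusted p = 0.214), and Sema3g was above background on no array.

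In class 4, which is membrane-bound, 0 of 6 genes passed the limma test at an adjusted p below 0.05, where 14.0% of all genes did. An unadjusted p below 0.05 was found for 0 of the 6, against 29.5% of all genes. The differences of the 6 lay between -0.04 and 0.38. Sema4d, the ligand of plexin-B1, stood at 8.85, 9.06 and 8.97 against 9.26, 8.98 and 8.45, with a difference of 0.07 ± 0.25 (interval -0.54 to 0.67). In class 5, which carries thrombospondin repeats, the genes differed from each other. Sema5b stood at 4.72, 6.18 and 5.45 against 6.98, 7.25 and 7.67 (difference -1.85 ± 0.39, adjusted p = 0.0258). Since 1 diploid array lay above background, the lower bound of its fold was 1.01, and raising values to the background ended the call (adjusted p = 0.628). The call also ended without tetraploid array 3 (0.0641) or diploid array 1, 2 or 3 (0.0592, 0.0834 and 0.0870). Sema5a stood at 8.77, 10.46 and 10.84 against 8.73, 9.24 and 9.57. Tetraploid arrays 2 and 3 exceeded every diploid array and array 1 did not, so that the difference of 0.85 ± 0.54 (adjusted p = 0.358) became 1.47 (adjusted p = 0.0386) without tetraploid array 1.

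Class 6 genes encode transmembrane ligands of A plexins. Sema6c rose, at 7.09, 6.94 and 7.12 against 6.07, 6.25 and 5.99 (difference 0.95 ± 0.19, adjusted p = 0.0212), but was above background on no array. Raising values to the background ended this call (adjusted p = 0.464), as did leaving out diploid array 1, 2 or 3 (0.0853, 0.0726 and 0.0797). Sema6a stood at 6.84, 3.73 and 6.21 against 8.13, 7.97 and 8.26. All diploid arrays and no tetraploid array were above background, and the wide tetraploid spread went with an adjusted p of 0.0672 (difference -2.52 ± 0.74). The adjusted p was 0.0291 without tetraploid array 2 and 0.0456 without array 1. Sema6d had a difference of -1.14 (adjusted p = 0.0646). Sema6b, whose pair of probe sets held identical values on every array, had one of 0.09 ± 0.34 (interval -0.71 to 0.90). Sema7a, the lipid-anchored ligand of plexin-C1, stood at 8.78, 6.59 and 7.14 against 8.92, 7.81 and 8.55 (difference -0.92 ± 0.58, adjusted p = 0.351), with tetraploid array 1 at the diploid level.

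Of the 9 plexins, the receptors of semaphorins, 2 fell and 1 rose (22.2% and 11.1%, against 7.80% and 6.15% of all genes). The changes opposed each other within the A subfamily. Plxna4, a receptor for class 3 and class 6 semaphorins, stood at 5.88, 4.28 and 4.33 against 9.12, 8.69 and 8.42. No tetraploid value was above background, and the difference was -3.91 ± 0.46 (adjusted p = 0.00416; at least 2.74-fold lower). Plxna3, a partner of neuropilin-2, stood at 9.54, 9.05 and 9.15 against 7.64, 7.33 and 7.63. Every array of both lines was above background, and Plxna3 was 3.28-fold higher (difference 1.71 ± 0.22, adjusted p = 0.00551). Both calls held without any 1 array. Plxna1 was above background throughout, at 10.36, 10.05 and 10.11 against 10.75, 10.63 and 10.64. The groups did not overlap, but the difference of -0.50 ± 0.19 did not pass (adjusted p = 0.133; interval -0.95 to -0.05). Plxna2 had a difference of 0.04 (adjusted p = 0.940).

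Among the B, C and D plexins, Plxnc1, the receptor of semaphorin 7A and a gene of macrophages as well, stood at 3.64, 4.32 and 4.59 against 5.55, 6.18 and 7.23 (difference -2.14 ± 0.46, adjusted p = 0.0271). Only diploid array 3 was above background, and raising values to the background turned the difference to 0.05 (adjusted p = 0.739). On diploid arrays 1 to 3, where Plxnc1 stood at 5.55, 6.18 and 7.23, the mean of the macrophage markers was 5.05, 6.41 and 7.28. Of those 8 markers 4 were above background on no array and 0 on all 6, and their part in the difference of Plxnc1 was not tested. Without diploid array 3 the adjusted p was 0.0579, without diploid array 2 it was 0.0802, and without tetraploid array 1 or 2 it was 0.0688 and 0.0703. Plxnb2, a B plexin of many proliferating cells, stood at 10.83, 11.27 and 10.76 against 11.06, 11.10 and 10.94. Its difference was -0.08 ± 0.22 (interval -0.58 to 0.43). Plxnb1 and Plxnd1, the latter the receptor of semaphorin 3E, had differences of 0.12 and 0.13.

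Both neuropilins, which bind class 3 semaphorins and VEGF, just missed the threshold. Nrp1 stood at 10.11, 10.42 and 10.94 against 11.44, 11.50 and 11.38 (difference -0.95 ± 0.25, adjusted p = 0.0503; 95% interval -1.55 to -0.35). Nrp2 stood at 9.42, 9.85 and 8.94 against 10.44, 10.53 and 10.25 (difference -1.01 ± 0.27, adjusted p = 0.0529; interval -1.65 to -0.36). In both genes all 6 values were above background and each tetraploid array lay below each diploid array. Leaving out tetraploid array 3 brought Nrp1 to an adjusted p of 0.0265, and leaving out tetraploid array 2 brought Nrp2 to 0.0402. In the other fits without 1 array it was 0.0850 to 0.158 for Nrp1 and 0.0935 to 0.168 for Nrp2. With array medians subtracted Nrp2 reached 0.0473, and after quantile normalization 0.0480, where Nrp1 had 0.0525 and 0.06145. With the replicate block neither passed (0.0956 for Nrp1 and 0.0691 for Nrp2). Both passed with values raised to background, with the variance trend and with low genes filtered out. The endothelial gene Kdr, which encodes the VEGF receptor that pairs with neuropilin-1, fell, while Pecam1 and Cdh5, defining genes of endothelium, were above background on no array. Cldn5, the only marker of that list above background on all 6 arrays, lay the other way. It stood at 8.30, 8.39 and 8.20 against 7.95, 7.95 and 7.64, a difference of 0.45 that did not pass (adjusted p = 0.179). The mean of the 8 endothelial markers lay between 5.62 and 5.87 per tetraploid array and between 6.74 and 6.86 per diploid array. The part of endothelial cells in the neuropilin values was not tested.

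Slits are secreted repellents, and Robos their receptors. Slit2 fell: it stood at 9.92, 10.13 and 10.75 against 11.32, 11.44 and 11.54, 2.24-fold lower (difference -1.17 ± 0.26, adjusted p = 0.0306). Slit3, above background on all arrays as well, stood at 8.39, 9.44 and 10.55 against 10.61, 11.39 and 11.30. The highest tetraploid value of Slit3 nearly reached the lowest diploid one, and the difference of -1.64 ± 0.54 did not pass (adjusted p = 0.0911), though it did without tetraploid array 3 (0.0308). Slit1 was above background on no array. The call of Slit2 ended without tetraploid array 1 or 2 (0.0593 and 0.0847) and without diploid array 1, 2 or 3 (0.0858, 0.105 and 0.101).

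None of the 4 Robo genes passed the limma test at an adjusted p below 0.05, where 14.0% of all genes did. An unadjusted p below 0.05 was found for 2, Robo1 and Robo2, and for 29.5% of all genes. Robo1 stood at 8.99, 4.95 and 4.32 against 9.27, 8.78 and 8.94. Tetraploid array 1 was thus at the diploid level, and arrays 2 and 3 were far below background. This gave Robo1 the largest SD over the tetraploid arrays among the 69 genes, 2.53, against 0.25 over the diploid arrays. Its difference was -2.91 ± 1.12 (adjusted p = 0.138), and without tetraploid array 1 it was -4.36 (adjusted p = 0.00258). Robo2 had its highest tetraploid value on array 1 too, at 6.57, 4.34 and 5.21 against 7.22, 6.64 and 7.55 (difference -1.76, adjusted p = 0.0829), with 1 diploid array above background. Robo3 and Robo4, the latter an endothelial receptor, were above background on no array.

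Netrins and their Unc5 receptors changed in both directions. Ntn1, the classical axon attractant, rose: it stood at 8.55, 7.79 and 7.96 against 6.81, 6.40 and 7.15, 2.48-fold higher with 1 diploid array above background (difference 1.31 ± 0.30, adjusted p = 0.0310). Ntn4, a netrin that binds laminins in basement membranes, fell: it stood at 4.72, 5.89 and 3.82 against 7.42, 7.46 and 7.27 (difference -2.57 ± 0.49, adjusted p = 0.0180). The diploid values of Ntn4 lay just above background, so the lower bound of its fold was only 1.07, and raising values to the background ended the call (adjusted p = 0.572). Unc5b, a netrin receptor that can also signal cell death, fell, at 9.55, 9.69 and 9.79 against 10.97, 10.85 and 10.97. All values were above background with a small spread in both lines, and Unc5b was 2.39-fold lower (difference -1.26 ± 0.18, adjusted p = 0.00856), a call that held without any 1 array. Unc5a, Unc5c and Unc5d did not pass, with differences of 0.02, 0.40 and -0.65. The call of Ntn1 ended without any 1 of the 6 arrays (adjusted p 0.0513 to 0.112), that of Ntn4 without tetraploid array 1 (0.0509) or diploid array 1, 2 or 3 (0.0611, 0.0671 and 0.0584). Of the letter matches, Unc50 stood at 8.63, 7.59 and 8.12 against 8.89, 8.75 and 8.87 (difference -0.72 ± 0.29, adjusted p = 0.148) and passed without tetraploid array 1 (0.0498), while Unc5cl had a difference of 0.12 (adjusted p = 0.753).

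The guidance genes also differed among the tetraploid arrays themselves. The SD over the 3 arrays was larger in the tetraploid line for 53 of the 69 genes (76.8%), as it was for 64.8% of all genes. An SD above 1 was found in 14 of the 69 over the tetraploid arrays (20.3%, against 6.43% of all genes) and in 1, Epha6, over the diploid arrays (1.45%, against 3.58%). Robo1, Sema6a, Ephb6, Epha7, Efna1, Sema7a, Robo2, Sema5a, Sema3c, Sema3a, Slit3, Ephb1, Ntn4 and Epha6 made up the 14. Of these, Sema6a, Epha7, Robo2, Ntn4 and Epha6 had 0 tetraploid arrays above background, so their tetraploid spread was among values below it. Robo1, Sema7a and Ephb1 had 1 tetraploid array above background. The array that stood apart was not the same in each of the 14. Tetraploid array 1 was high for Robo1 and Sema7a and low for Sema3a, Sema3c and Sema5a. Array 2 was low for Sema6a and Epha7, and array 3 was low for Efna1 and Ephb6. Over the 69 genes tetraploid array 1 was the lowest of its line in 31, array 2 in 23 and array 3 in 15 (44.9%, 33.3% and 21.7%, against 34.4%, 31.2% and 34.4% of all genes), and each was the highest in 23. Per tetraploid array 37 to 41 members were above background (53.6% to 59.4%, against 51.4% to 54.6% of all genes), and per diploid array 46 to 49 (66.7% to 71.0%, against 53.4% to 56.9%).

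**Figure D3:**
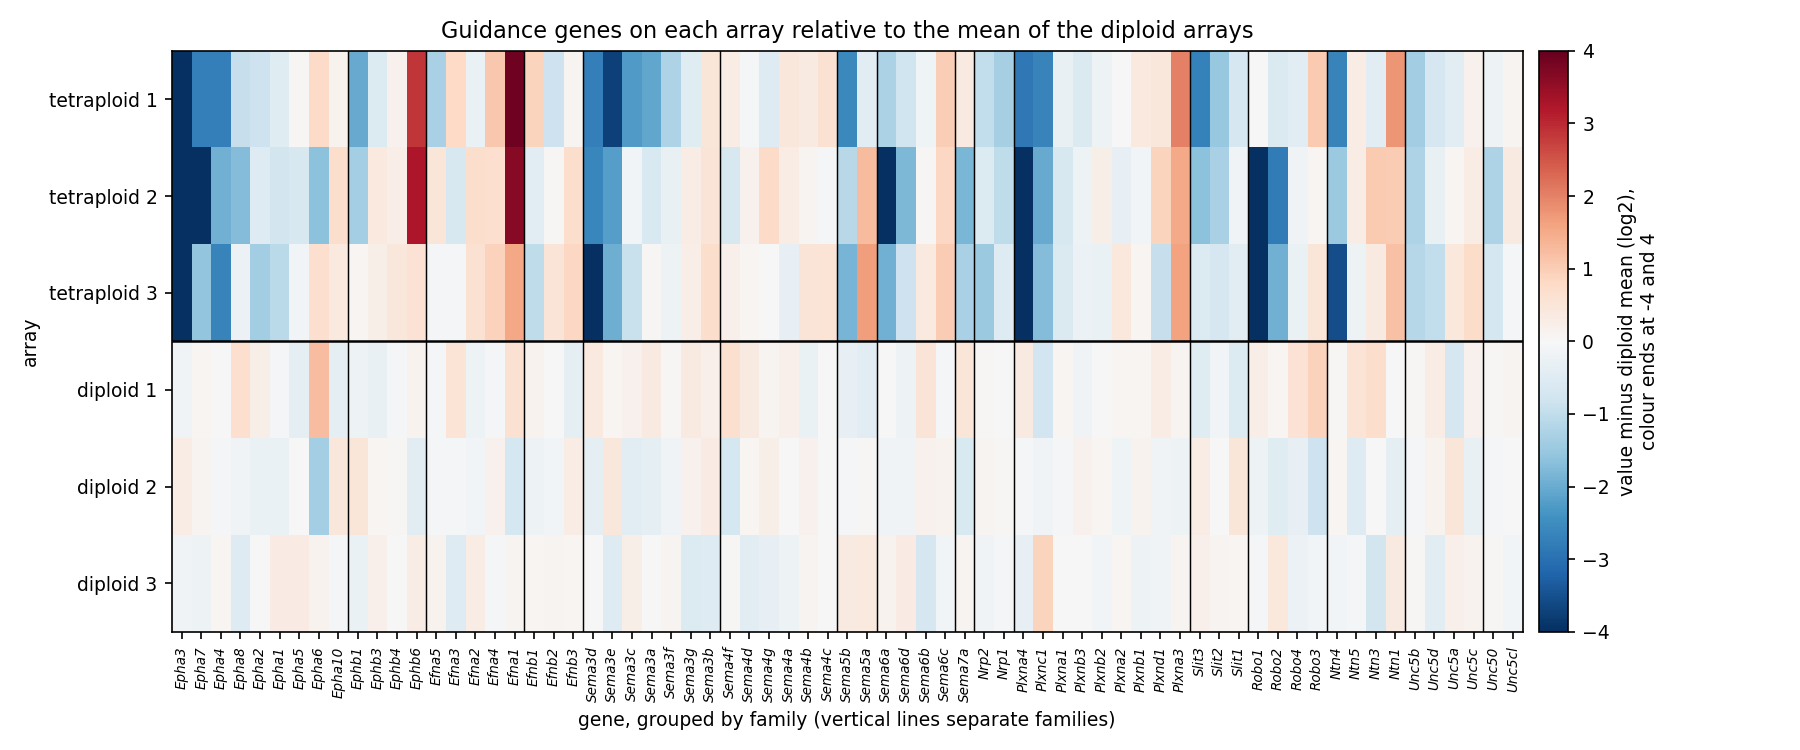
Value of each of the 69 genes on each of the 6 arrays minus the mean of the 3 diploid arrays (log2, colour, ending at -4 and 4), genes grouped by family along the horizontal axis. The diploid rows are pale, the Epha3 column is dark blue on all 3 tetraploid arrays, and Robo1 is pale on tetraploid array 1 and dark blue on arrays 2 and 3.

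Proteins that carry these signals inside the cell or bind the receptors at the membrane were taken from a list of 73 genes, none of them among the 69, of which 68 were measured. Of these 12 fell (17.6%, against 7.80% of all genes) and 4 rose (5.88%, against 6.15%), with 52 that did not pass. The list median was -0.21, against 0.07 over all genes. The list was more often above background: 49 of the 68 genes were so on all 6 arrays and 4 on none. Over all 19856 genes these numbers were 8627 and 7008, so the shares compare genes of unlike level. Flrt2, a membrane protein that binds Unc5 receptors, stood at 9.41, 9.07 and 9.11 against 11.91, 11.20 and 11.66 and was 5.25-fold lower (difference -2.39 ± 0.25, adjusted p = 0.00277). Its relative Flrt3, which also binds Robo1, stood at 7.23, 6.89 and 6.78 against 8.83, 8.58 and 9.18, 3.73-fold lower with 1 tetraploid array above background (adjusted p = 0.00536). All tetraploid values of both genes lay below all diploid values, as did those of Unc5b and of every other gene of the list that fell. These genes were picked by the test on the same values, so this adds nothing to their calls. Over the 68 genes of the list, 23 were lower without overlap (33.8%, against 18.2% of all genes). Srgap1, which acts below Robo, stood at 6.71, 4.60 and 6.88 against 8.41, 8.36 and 8.22, at least 2.05-fold lower (adjusted p = 0.0458). Mical2, an actin oxidase of a family that acts below plexins, stood at 9.14, 9.25 and 10.21 against 11.38, 11.50 and 11.55 and was 3.85-fold lower (adjusted p = 0.0114). Limk2, a kinase that inactivates cofilin, stood at 9.08, 8.75 and 8.79 against 10.48, 10.38 and 10.39 and was 2.91-fold lower (adjusted p = 0.00504). The phosphatase gene Ssh1, which acts on cofilin in the opposite direction, and Dpysl3, Dpysl4, Rock1, Enah, Cdc42 and Chl1 fell as well. Of the 6 fits that left out 1 array, Enah passed in 0 (adjusted p 0.0538 to 0.135), Ssh1, Dpysl3 and Cdc42 in 1 each, Rock1 and Dpysl4 in 2 each and Chl1 in 5. Dpysl4 was above background on no array and Chl1 on 1 diploid array. Raising values to the background ended both calls, with an adjusted p of 0.464 for Dpysl4 and 0.537 for Chl1, and turned their differences to 0.12 and 0.10.

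Of the 4 signalling genes that rose, Rgma, a membrane ligand of the netrin receptor relative neogenin, stood at 10.40, 9.73 and 10.33 against 8.59, 8.91 and 8.86 and was 2.59-fold higher (adjusted p = 0.0159). Pak3, a kinase activated by Rac and Cdc42, stood at 10.76, 10.08 and 10.31 against 9.30, 9.22 and 9.47 and was 2.07-fold higher (adjusted p = 0.0306). Rgs3, which binds ephrin-B tails, was 1.77-fold higher at the edge of the threshold (adjusted p = 0.04997), and Ngef, an exchange factor bound by EphA receptors, was above background on 1 tetraploid array. The call of Ngef ended with values raised to background (adjusted p = 0.268) and in 5 of the 6 fits without 1 array (0.0485 to 0.140 over the 6). The calls of Flrt2, Flrt3, Mical2 and Limk2 held without any 1 array. Without diploid array 1, 2 or 3 the adjusted p was 0.123, 0.127 and 0.114 for Srgap1, 0.0650, 0.0596 and 0.0534 for Rgma, and 0.103, 0.119 and 0.0774 for Pak3. The call of Srgap1 also ended without tetraploid array 1 (0.0594) and that of Pak3 without tetraploid array 3 (0.0592). The call of Rgs3 ended without any 1 of the 6 arrays (adjusted p 0.0655 to 0.178), with array medians subtracted (0.0505) and with the mean of its probe sets (0.290). Over the list, 5 fell without tetraploid array 2 or any 1 diploid array, and 0 rose without any 1 diploid array.

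**Figure D4:**
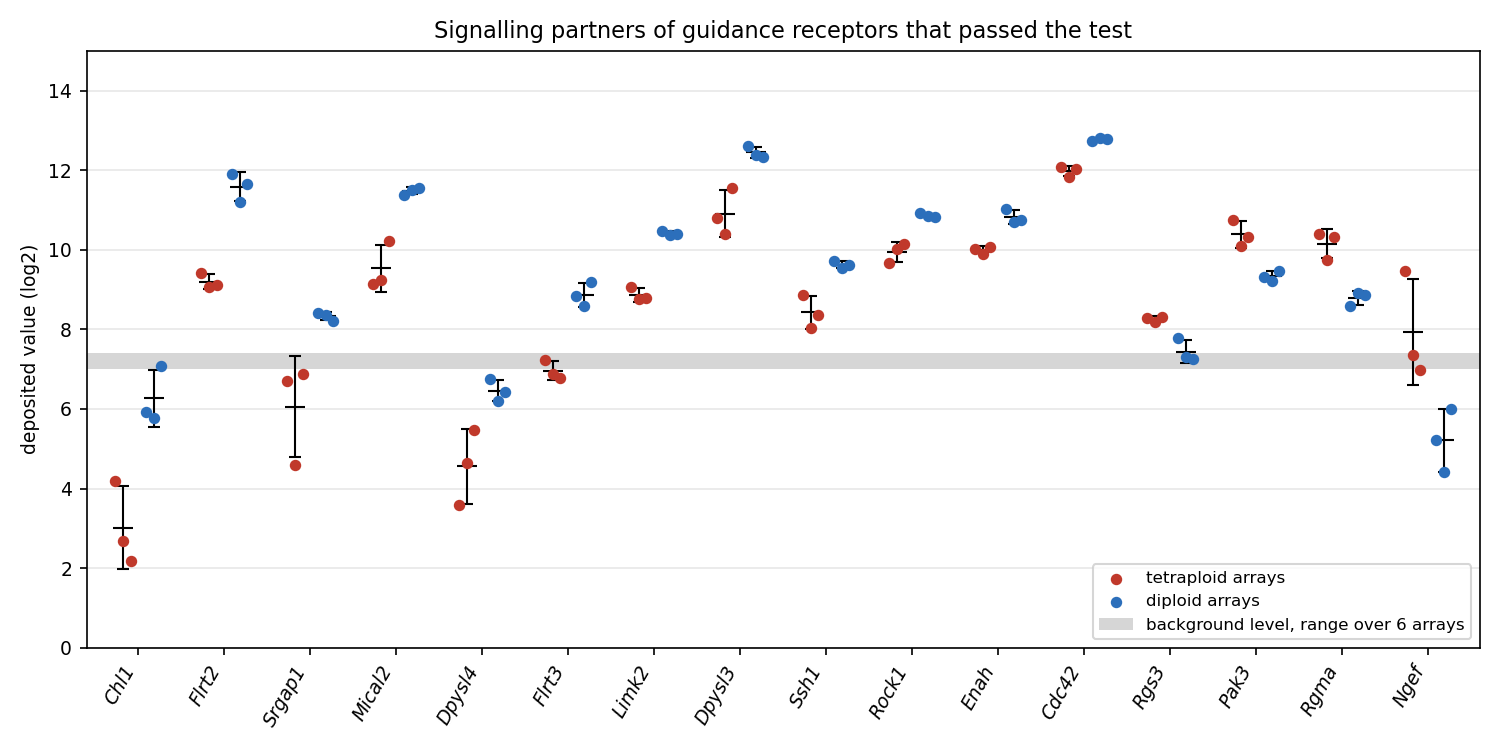
Deposited log2 value on each tetraploid (red) and diploid (blue) array for the 16 signalling genes that passed the limma test, ordered by difference, with means and SDs in black and the range of background levels in grey. The 12 genes on the left fell and the 4 on the right rose, all of them with no overlap between the lines. They were picked by the test on these same values.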

How the data were processed

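Gene expression was measured in 6 samples, 3 of a tetraploid and 3 of a diploid line of mouse embryonic fibroblasts. The deposited values are log2 signals, 1 per probe set and array, made by the authors with Affymetrix Expression Console, per the submitters' processing notes. Neither its version nor the algorithm or normalization it ran is given in the sources used here. The scale was read from the values: below 1000 on the linear scale, 100% were whole hundredths (tolerance 0.001). Array medians lay between 7.24 and 7.28, and the values were used as deposited. Of 28944 probe sets, 21789 had 1 symbol in the platform table, 1621 several and 5534 none. The 21698 single-symbol probe sets whose Entrez ID was in RefSeq gave 19856 genes, 993 of them with more than 1 probe set. Arrays give no counts, so their number limits the precision.

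The test was limma's moderated test (version 3.58.1, R 4.3.3; lmFit, eBayes, two-sided, Benjamini-Hochberg adjustment over all genes, no covariate), after a test on simulated data. With 3 arrays against 3, the smallest p of an exact permutation test is 0.1. The lines share replicate numbers, which the labels do not tie to a common batch. The members, the signalling list and the marker lists were chosen with earlier results of these data known. Genes named are those that passed the test, the member of each family with the highest mean, and members above background on all arrays whose groups did not overlap. Other members appear by value. From the signalling list, those above background on all arrays of a line are named, up to 5 in each direction, and others that passed by name. Alternatives were a filter on low genes, values raised to background, quantile normalization, subtraction of array medians, the mean of probe sets, a variance trend, a replicate block, and leaving out each array.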

Additional observations from a re-analysis of the deposited data

How the results depend on the processing

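Under quantile normalization, subtraction of array medians, the mean of probe sets and the variance trend, all 16 guidance genes that passed the test were called again. A variance trend raised the number that fell from 11 to 19, while calls over all genes in either direction went from 2770 to 4019. Keeping only genes with a mean above the median left 7 of the 16 in the test, all called, and 3 of the risen members. With values raised to background, 11 of the 16 were called, and the differences of Plxnc1 and Sema3d turned to 0.0534 and 0.124. Under that setting 7 other members were called, which gave 5 that rose and 13 that fell. Calls over all genes went from 2770 to 3947. The replicate numbers share only a number: deviations from the group means correlated at 0.101, 0.0307 and -0.0461 between arrays of the same number. With the replicate block, 1644 genes were called in place of 2770, 3 members rose and 10 fell, 1 signalling gene rose, and the calls of Slit2, Efna4 and Sema6c ended. Leaving out 1 array gave between 837 and 2532 calls over all genes, 1 to 4 members that rose and 5 to 13 that fell, and 0 to 3 signalling genes that rose and 5 to 11 that fell. The sign turned within the range over these fits in 20 of the 53 members that did not pass. It turned in 0 of the 16 that did, but in those the lines did not overlap. Leaving out 1 array could therefore not turn it, and the 0 says nothing about how firm the calls are. Among the 20 the range was -0.672 to 0.207 for Efna5, -0.726 to 0.229 for Efnb1, -0.381 to 0.280 for Efnb2, -0.234 to 0.0214 for Plxnb2, -0.248 to 0.353 for Sema6b and -0.157 to 0.249 for Sema4d. The cause of these shifts was not tested. Levels near the background of about 7 limit what can be said of 13 members above it on no array.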
